A study of Mus musculus with 2 samples.

Results

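Premyelinating oligodendrocyte-like cells were picked from single-cell profiles of mouse glioblastoma. Of 56943 barcodes in 8 matrices of unique molecular identifier (UMI) counts, 54574 had at least 200 genes, at most 10% of UMIs on mitochondrial genes and a ratio of log10 genes to log10 UMIs no lower than 0.8. Of these, 36998 also held at least the matrix median of UMIs divided by 3, and at most 3 UMIs on the complement genes C1qa, C1qb and C1qc together, which limits microglia and macrophages. The 802 premyelinating cells were those of the 36998 with at least 1 UMI of Opalin and at least 2 UMIs on each of at least 2 of Enpp6, Myrf and Plxnb3. The choice therefore used measured expression, and every level below that sets these cells against other cells is a description without a test.

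All tumors grew in the brains of C57BL/6J hosts from mGSC, a glioblastoma stem cell line of genotype Trp53+/- and Nf1+/-, so that every tumor came from 1 cell line. One group of mice received vehicle and the other Xevinapant, an oral mimetic of SMAC that antagonizes inhibitor of apoptosis proteins daily, with 4 matrices per group. Each group was its own pool with its own batch date, the labels name total RNA for one group and polyA RNA for the other, and the Xevinapant matrices were deposited under names that say vehicle. Treatment followed the sample labels, and batch, pool and treatment cannot be told apart. The study's design gives 4 tumors per group, but 3 pairs of matrices of a group were far more alike than the rest. Over 9856 genes, with 1 for sampling noise alone, the mean chi-square was 1.21 for vehicle 1 and 3, 2.48 for Xevinapant 1 and 2 and 2.69 for Xevinapant 3 and 4, against 10.9 to 32.1 in the 9 other pairs of a group. The Xevinapant pairs thus differed by more than sampling noise. Likeness did not follow the groups throughout. Vehicle 1 and vehicle 3 were closer to Xevinapant 3, at 8.27 and 8.51, than to vehicle 2 or vehicle 4. Each of the 3 pairs was counted as 1 sample, a choice that goes against 4 separate tumors per group, which left vehicle 1+3, vehicle 2, vehicle 4, Xevinapant 1+2 and Xevinapant 3+4. The labels speak of samples of individual mice but do not say which matrix came from which animal, so p-values measure only the spread between these samples. The matrices held 71835789 to 300206053 UMIs.

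Oligodendrocyte precursor cells (OPCs) divide and carry receptors such as PDGFRA. When they leave the cycle they pass through a committed state marked by the receptor GPR17 and then a premyelinating state, in which cells spread processes, express Enpp6, Opalin and the transcription factor gene Myrf, and start to make myelin proteins and galactolipids. Cells that meet an axon wrap it and switch on the genes of compact, mature myelin, while many of the others are lost. Opalin encodes a membrane glycoprotein of oligodendrocytes, Enpp6 a choline phosphodiesterase, Myrf a factor needed for myelin gene expression, and Plxnb3 a semaphorin receptor.

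MYRF binds DNA at sites with the core CTGGCAC or CTGGTAC, and SOX10 at sites such as AACAAT or ACAAAG. The 250 bases before each gene start were searched for these letters on both strands in RefSeq promoters of GRCm38.p6, where 5.93% of 32851 promoters held the first motif and 24.0% the second. The promoters of Opalin, Mag and Cnp are shown because they belong to the gene that defined the cells and to 2 myelin genes with high ratios in them. The 150 bases before the start are written 5′ to 3′ along the gene, with motif letters in capitals. Opalin lies at chr19:41077114-41077263 on the minus strand and held 1 match to the SOX letters, at base -139 from the start. Mag lies at chr7:30914864-30915013 on the minus strand for its first listed start, with a match to the MYRF letters at -68 and to the SOX letters, read on the other strand, at -126. Cnp lies at chr11:100574789-100574938 on the plus strand, with a match to the MYRF letters at -81 and one to the SOX letters at -167, upstream of the bases shown.
Opalin: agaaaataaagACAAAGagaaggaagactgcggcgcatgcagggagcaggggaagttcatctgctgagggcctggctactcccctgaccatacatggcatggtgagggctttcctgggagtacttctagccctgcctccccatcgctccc
Mag: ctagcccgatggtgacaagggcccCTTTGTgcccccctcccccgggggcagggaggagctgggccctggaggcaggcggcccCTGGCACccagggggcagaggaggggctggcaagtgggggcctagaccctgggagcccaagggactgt
Cnp: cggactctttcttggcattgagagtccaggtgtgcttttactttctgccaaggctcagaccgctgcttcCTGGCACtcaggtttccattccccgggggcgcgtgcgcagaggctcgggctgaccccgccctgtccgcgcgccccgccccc
The Opalin window held no match to the MYRF letters, and Enpp6 and Plxnb3 held matches to the SOX letters alone, 1 and 2 of them. A match of letters is no evidence of binding in these cells.

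The genes of the rule, which the cells were chosen for, were found in all samples. Opalin stood at 337, 361 and 461 CPM (counts of a gene scaled to the summed UMIs of the sample) in vehicle 1+3, vehicle 2 and vehicle 4, and at 317 and 355 in Xevinapant 1+2 and Xevinapant 3+4. Enpp6 stood at 340, 369 and 328 CPM against 394 and 325 CPM. Both genes overlapped between the treatments. Myrf stood at 312, 301 and 299 CPM in vehicle and 425 and 333 CPM in Xevinapant, without overlap, and Plxnb3 at 762, 906 and 749 CPM and 1112 and 832 CPM, with overlap. Opalin was used at a low threshold, and 225 of the 802 cells had exactly 1 UMI of it. Myrf reached 2 UMIs in 94.1% of the cells, Plxnb3 in 99.5% and Enpp6 in 62.5%. In all, 450 cells held all 3 markers and 352 exactly 2. In other oligodendroglial cells, defined as eligible cells outside the rule with at least 2 UMIs on Olig1 and Olig2 together (32493 cells), 2 UMIs were seen for Plxnb3 in 57.4%, for Myrf in 10.4%, for Enpp6 in 1.27% and for Opalin in 0.58%. In host immune cells, which should lack these genes, the shares were 0.91%, 0.0%, 0.18% and 0.09%.

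Cells at the edge of the rule differed from those well inside it. Cells with 1 Opalin UMI held 155 CPM of Mbp and 99.2 CPM of Enpp6, against 749 and 348 CPM over all 802 cells. The 352 cells with exactly 2 of the 3 markers held 128 CPM of Mbp and 25.8 CPM of Enpp6. Their Mki67 stood at 548 CPM, against 438 CPM over all 802 cells. The 301 cells with fewer than 2 UMIs of Enpp6 held 7.6 CPM of it and 110 CPM of Mbp. The name premyelinating fits these cells less well. Just outside, 3300 cells passed the other markers and had no Opalin UMI. These had 36.9 CPM of Mbp and 26.9 CPM of Enpp6, with 1487 CPM of Gpr17 and 1439 CPM of Bcas1. Another 721 cells had Opalin and 1 of the 3 markers, with 17.3 CPM of Mbp and 679 CPM of Gpr17. The limit on C1q alone kept out 80 cells of high UMI count (median 52028), and the limit on depth alone kept out 27 cells with a median of 2607 UMIs and 2226 CPM of Mbp. The chosen cells were deep. The median was 24963 UMIs in the 802 cells and ran from 14750 to 23697 per matrix in other oligodendroglial cells.

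The cells were a small share of every tumor and their share did not separate the treatments. They made up 3.38%, 1.06% and 1.77% of eligible cells in vehicle 1+3, vehicle 2 and vehicle 4, with 214, 55 and 180 cells. In Xevinapant 1+2 and Xevinapant 3+4 they made up 3.37% and 1.73%, with 181 and 172 cells. The highest and the lowest share were both in vehicle, and each Xevinapant share lay between them. The mean was 2.07% ± 1.19 (SD, n = 3) in vehicle and 2.55% ± 1.16 (SD, n = 2) in Xevinapant, a difference of 0.477 percentage points (two-sided exact permutation test, p = 0.8, where 3 against 2 samples cannot go below 0.1). Cells with at least 5000 UMIs were also thinned to 5000, with shallower cells left out and the rule and its C1q limit applied to the thinned counts. The shares were then 1.31%, 0.521% and 0.817% against 1.64% and 0.656%. Between vehicle samples the share differed more than counting error, since the 95% Wilson intervals of vehicle 2 (0.818 to 1.38%) and vehicle 4 (1.53 to 2.04%) did not meet. Intervals cover counting error only.

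**Figure D1:**
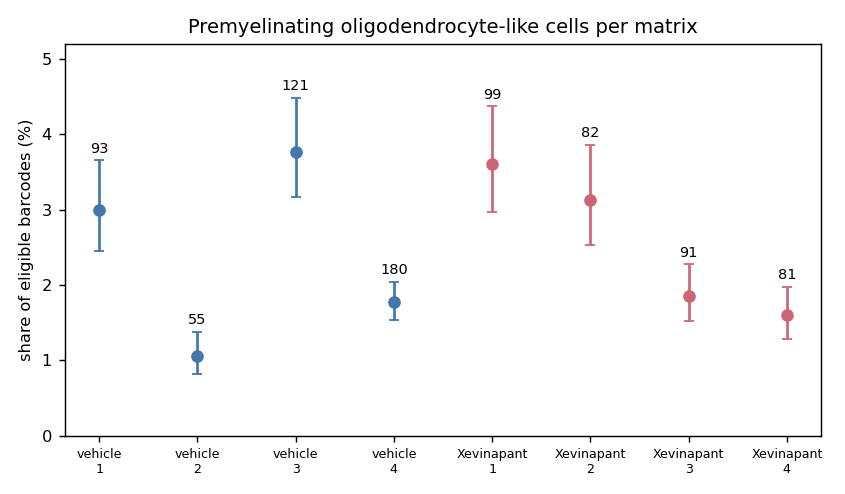
Share of eligible barcodes that met the rule, in percent on the y axis, for each of the 8 matrices on the x axis, vehicle in blue and Xevinapant in red. Points are the share, bars the 95% Wilson interval and the numbers the cells counted; vehicle 2 has the lowest share with 55 cells and vehicle 3 the highest with 121.

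Genes of the myelin sheath were among those with the highest ratios over other oligodendroglial cells. Mbp, which compacts the sheath, stood at 671, 1727 and 779 CPM in vehicle 1+3, vehicle 2 and vehicle 4 and at 561 and 735 CPM in the Xevinapant samples, while the mean in other oligodendroglial cells was 10.9 CPM. Its log2 ratio averaged 6.21 and ran from 4.88 to 7.71 over the 5 samples. Mag, an adhesion molecule that faces the axon, had a mean log2 ratio of 6.12 (5.40 to 7.73). Vehicle 2 was highest in both, and 1 cell described below accounted for most of that excess. Cnp, a phosphodiesterase of uncompacted myelin, was even across samples, at 1268, 1361 and 1109 CPM against 1272 and 1276 CPM (log2 ratio 3.71, SD 0.52, n = 5). Mog, an outer surface protein of late myelin, was low, at no more than 21.0 CPM, with 0.31 CPM in the other cells. Of 30 listed myelin genes, 26 had at least 5 CPM in either set of cells, 23 were higher in all 5 samples and 16 at least 2-fold higher in all 5. Over all 10993 genes at that level 22.5% were higher in all 5 samples and 2.21% at least 2-fold higher, while 33.8% were lower in all 5 and 0.791% at least 2-fold lower. Since the cells were chosen for genes of this program, these counts describe the choice.

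**Figure D2:**
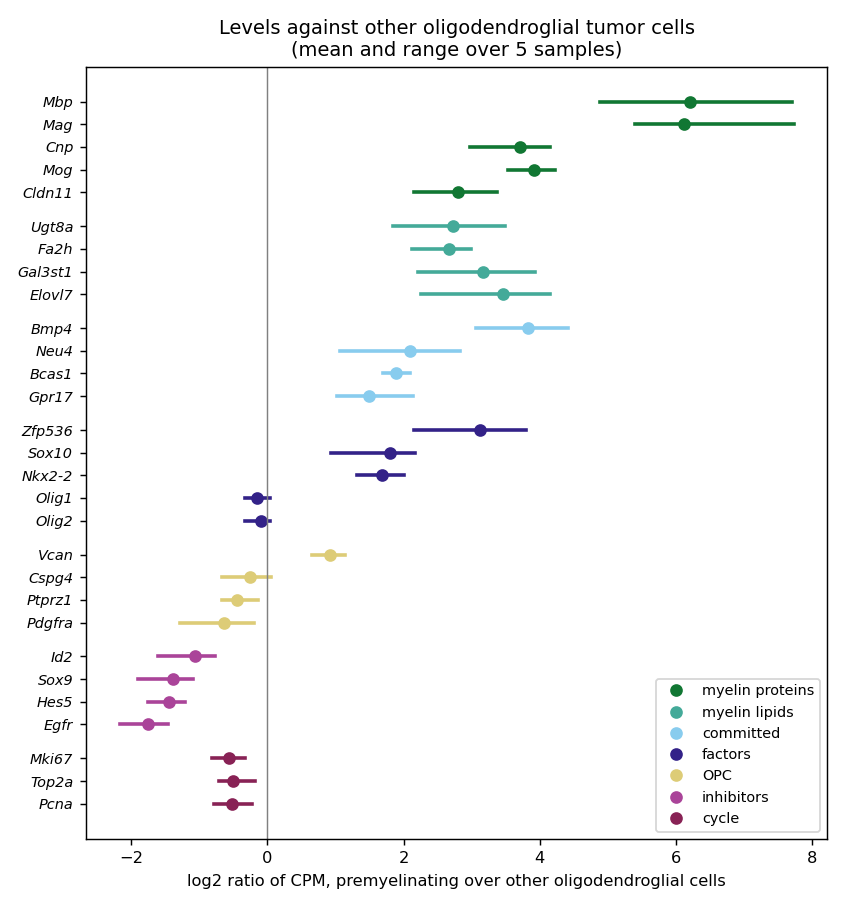
Log2 ratio of CPM in premyelinating cells over other oligodendroglial cells on the x axis, for named genes on the y axis, coloured by group. Points are means and lines the range over 5 samples; Mbp (6.21) and Mag lie farthest to the right and Egfr (-1.76) farthest to the left, while the lines of Olig1 and Olig2 cross 0.

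Of 12 genes of myelin lipid synthesis, 8 were higher in all 5 samples, 4 of them at least 2-fold, and 1 was lower. Enzymes particular to myelin galactolipids were high, with Ugt8a, which makes galactosylceramide, at 135 to 177 CPM per sample (log2 ratio 2.72, SD 0.66), Fa2h, which hydroxylates its fatty acid, at 135 to 178 CPM (2.66, SD 0.45) and Gal3st1, which sulfates it, at 72.5 to 99.8 CPM (3.17, SD 0.70). Elovl7, a fatty acid elongase, had a log2 ratio of 3.46 (SD 0.77). The other members higher in all 5 samples were Elovl1 (0.75), Degs1 (0.46), Cers2 (0.25) and Sptlc2 (0.19), Acaca was the lower one (-0.25), and Fasn and Scd2 had log2 ratios of 0.07 and -0.00. Of 20 genes of cholesterol synthesis, 3 were higher in all 5 samples (Lss, Pmvk and Hsd17b7), 1 was lower in all 5 (Dhcr7, log2 ratio -0.43), and the median log2 ratio was 0.09. Over all genes the median was -0.06.

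Markers of the committed state were retained. All 12 genes of the committed OPC list were higher in all 5 samples. Gpr17, a receptor that holds back terminal maturation, stood at 1665, 1984 and 1369 CPM in vehicle and 2194 and 2430 CPM in Xevinapant, 1.49 above the other cells on the log2 scale (SD 0.40). Bcas1, which marks early myelinating cells, stood at 1991 to 3579 CPM (log2 ratio 1.89, SD 0.16). At least 2 UMIs of it were seen in all 802 cells, in 89.0% of the shallower other oligodendroglial cells and in 8.78% of immune cells. Bmp4, a secreted signal that committed cells make, had the highest ratio of this list, 3.82 (SD 0.55), at 59.9 to 105 CPM. Neu4, a sialidase, had a log2 ratio of 2.09. Of the list of newly formed oligodendrocyte genes, 12 of 15 in the files had at least 5 CPM in either set, and 7 of them were higher and 2 lower in all 5 samples, Prom1 (-1.28) and Cemip2 (-0.86). Itpr2, a calcium channel of the endoplasmic reticulum that marks newly formed cells, had a log2 ratio of 2.12 (1.32 to 2.46), and Slc44a1, a choline transporter, one of 2.04 (1.71 to 2.44). Tcf7l2, a factor that is brief in newly formed cells, had one of 1.57. Casr had 0 UMIs in all 802 cells, which allows a share of up to 0.374% of cells with a UMI.

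Of 11 measured transcription factors of the lineage, 9 were higher in all 5 samples and 0 lower, 5 of them at least 2-fold higher, with a median log2 ratio of 1.57. The other 2, Olig1 and Olig2, which every stage expresses, had log2 ratios of -0.15 and -0.10 with ranges that crossed 0. Sox10, the factor that keeps the lineage and acts with MYRF on myelin genes, was at 1101, 755 and 914 CPM in vehicle and 1660 and 1258 CPM in Xevinapant, with a log2 ratio of 1.80 (0.94 to 2.17). Nkx2-2, which goes with the exit from the precursor state, had one of 1.69. Zfp536 and Zfp488, zinc finger genes of differentiating cells, had ratios of 3.12 and 1.88. Nkx6-2, a homeobox factor of myelinating cells, had 0 UMIs. Genes that restrain differentiation were mostly lower. Of 16 listed, 9 were lower in all 5 samples and 4 higher, namely Gpr17, Sox2, Zfp365 and 1 gene shared with the OPC list, Sox6. Hes5, a Notch target, had a log2 ratio of -1.45, Sox9, a glial progenitor factor, one of -1.39, and Id2, which sequesters OLIG proteins, one of -1.06.

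Of 11 growth factor receptor genes measured, 3 were higher in all 5 samples (Erbb3, Fgfr2 and Lpar1) and 6 lower. Egfr, a receptor for mitogens, was at 38.6, 85.3 and 103 CPM in vehicle and 23.7 and 76.2 CPM in Xevinapant (log2 ratio -1.76, SD 0.29), and Igf1r had a log2 ratio of -1.0. Erbb3, a neuregulin receptor of differentiating oligodendrocytes, was at 118 to 148 CPM per sample (log2 ratio 2.27, SD 1.01). Pdgfra, the defining receptor of OPCs, was lower in all 5 samples (log2 ratio -0.63), whereas Cspg4, the NG2 proteoglycan, had a log2 ratio of -0.26 with a range that crossed 0. The OPC list as a whole was thus not lower. Of its 12 genes 7 were higher in all 5 samples, such as Vcan (0.92) and Gpr37l1 (0.99), and 3 lower, namely Pdgfra, Ptprz1 and Cacng4. Of 11 measured semaphorin, plexin and neuropilin genes, the family of Plxnb3 and its partners, 5 were higher and 3 lower in all 5 samples (median log2 ratio -0.06). The ligand genes Sema4d and Sema3d, named after their values were seen, had ratios of 1.69 and 3.0, Sema6a and Sema6d ones of -0.06 and -0.14, and the receptors Plxnb1 and Plxnb2 ones of -0.13 and -0.73.

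With the genes of the rule set aside, the highest log2 ratios among genes with a mean level of at least 5 on the log2 CPM scale and a higher level in all 5 samples included those of Mbp, Mag, Tmem163 (4.61), Tmem88b (4.19), Cdk18 (4.19), Col20a1 (4.16), Bfsp2 (3.87), Bmp4 and Cnp. Tmem163 encodes a zinc transporter, Cdk18 a cyclin-dependent kinase of the PCTAIRE family and Bfsp2 a filament protein known from the lens. The 10 lowest, with that level in the other cells and lower in all 5 samples, were Bmp3 (-2.10), Sez6 (-1.92), Neurod1 (-1.91), Wnt7a (-1.80), Clmp (-1.80), Egfr, Igfbp3 (-1.75), Itga1 (-1.67), Slc1a3 (-1.67) and Aqp4 (-1.66). Slc1a3, a glutamate transporter, and Aqp4, a water channel, are astrocyte genes, and Neurod1 is a neuronal factor. Of 7 measured genes listed as immune genes of oligodendrocytes in tumors or inflamed tissue, 2 were higher in all 5 samples, Serpina3n and C4b, and 2 lower, the chemokine genes Cxcl10 (-1.49) and Ccl2 (-1.06), with a median log2 ratio of -0.12. Serpina3n, a serine protease inhibitor, was at 1068, 1150 and 1156 CPM in vehicle and 1782 and 1474 CPM in Xevinapant, with a log2 ratio of 2.80 (1.75 to 3.82). C4b, a complement component, was at 606, 564 and 709 CPM and 1207 and 938 CPM, with a log2 ratio of 2.74 (1.88 to 3.73).

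Cycle genes were expressed, at lower levels than in the other cells. All 18 S phase genes were lower in all 5 samples (median log2 ratio -0.58), as were 16 of 18 genes of G2 and mitosis (median -0.61). Mki67, which marks cycling nuclei, stood at 483, 515 and 545 CPM in vehicle and 282 and 418 CPM in Xevinapant, against a mean of 658 CPM in other oligodendroglial cells. At least 2 UMIs of Mki67 were seen in 51.1% of the 802 cells, in 67.3% of other oligodendroglial cells and in 21.5% of immune cells, and the median depths of these sets differed.

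The premyelinating cells were also set against Gpr17 committed OPC-like cells. These were eligible cells with at least 3 UMIs of Gpr17, at least 2 UMIs on Olig1 and Olig2 and no Opalin (17208 cells). The committed cells had a mean of 1072 CPM of Gpr17, which chose them, and 896 CPM of Bcas1. The log2 ratio of premyelinating over committed cells was 0.85 for Gpr17 and 1.55 for Bcas1. The myelin proteins stood far higher than that, with ratios of 5.87 for Mbp, 5.97 for Mag and 3.31 for Cnp. Bmp4 had a ratio of 3.33, Zfp536 one of 2.82 and Erbb3 one of 1.71. OPC genes went both ways. Of 12, 4 were higher and 4 lower in all 5 samples (median log2 ratio -0.03), with 0.73 for Vcan and 0.75 for Gpr37l1, and -1.05 for Pdgfra and -0.63 for Cspg4.

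The 802 cells were not uniform, and their myelin level set them in an order. The UMIs of Mbp were counted per 10000 UMIs of a cell. No UMI of Mbp was found in 258 cells (32.2%), up to 5 per 10000 in 284 cells (35.4%), more than 5 and up to 25 in 163 cells (20.3%) and more than 25 in 97 cells (12.1%). At least 2 UMIs of Mbp were found in 56.9% of the 802 cells, in 2.65% of other oligodendroglial cells and in 12.6% of immune cells, so that a low count of Mbp in a single cell is not read as expression. All samples held cells of each kind. The highest class had 28 of 214, 11 of 55 and 28 of 180 cells in vehicle 1+3, vehicle 2 and vehicle 4. It had 11 of 181 cells in Xevinapant 1+2 and 19 of 172 in Xevinapant 3+4, a smaller share than in any vehicle sample. That difference was not tested. Median depth was not even, at 28957, 29858, 20185 and 15926 UMIs over the 4 classes, and its part in the pattern was not tested. Values are given from the lowest to the highest class, as means of the 5 samples, with no test, since the classes were cut on expression of the same cells.

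Most myelin genes that the classes did not use were higher in cells with more Mbp. Of 26 at 5 CPM or more in any class, 21 were higher in the highest class than in the lowest in all 5 samples and 1 was lower, Omg, at 152 and 76.1 CPM. Over all 11069 genes at that level 11.3% were higher and 29.2% lower in all 5. Of 14 late mature genes 6 were higher and 2 lower (Gsn and Anln), of 12 newly formed genes 9 higher and 0 lower, and of 12 committed OPC genes 6 higher and 2 lower (Lims2 and Vcan). Mag went from 3.3 through 24.0 and 103 to 991 CPM, Mog from 3.6 CPM through 12.8 and 21.2 CPM to a higher level still, and Cnp from 549 through 931 and 1868 to 4291 CPM. Sirt2, a deacetylase of myelin, went from 583 to 4523 CPM, Nfasc, which encodes a paranodal adhesion molecule, from 121 to 3081 CPM and Tubb4a, the tubulin of oligodendrocytes, from 161 to 1731 CPM. All of these were higher in the highest class than in the lowest in all 5 samples. Without the 1 cell of vehicle 2 described below they still were. The highest class then stood at 704 CPM for Mag, 3994 for Cnp, 4316.5 for Sirt2, 2739 for Nfasc and 1613 for Tubb4a. The genes of the rule followed, with Enpp6 from 80.9 to 1569 CPM, Opalin from 146 to 1209 CPM and Myrf from 186 to 887 CPM. These genes chose the cells by fixed UMI limits, and the highest class was the shallowest, so their order is no separate support. The galactolipid enzyme gene Ugt8a followed too, from 79.7 to 522 CPM. The summed cholesterol genes stood at 3091 and 3834 CPM at the ends, higher in 4 of 5 samples, and Hsd17b7 at 25.7 and 150 CPM, higher in all 5.

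Gpr17 went a little the other way, at 2220, 1688, 1768 and 1500 CPM, with 1 of 5 samples against that direction, while Bcas1 went from 1857 to 4353 CPM and Bmp4 from 49.7 to 209 CPM. Factors divided again. Sox10 went from 855 to 1797 CPM, Zfp536 from 31.1 to 222 CPM, Tcf7l2 from 80.7 to 355 CPM and St18 from 0.6 to 34.9 CPM, higher in all 5 samples. Olig1 went the other way, from 947 to 571 CPM, and Olig2 from 827 to 515 CPM, both lower in all 5 samples. Sox9 went from 323 to 44.3 CPM and Hes5 from 213 to 51.2 CPM, also lower in all 5. Of the 12 OPC genes 5 were lower at the high end in all 5 samples and 1 higher, the endothelin receptor gene Ednrb, at 261 and 552 CPM, and the list summed to 5594 and 3841 CPM. Cspg4 was at 576 and 177 CPM and Ptprz1 at 1144 and 444 CPM, both lower in all 5 samples, and Pdgfra at 202 and 57.4 CPM with 1 sample against the direction. Egfr, a growth factor receptor gene outside that list, was at 99.8 and 22.5 CPM, lower in all 5.

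Cycle genes were lowest in the highest class. The 18 genes of G2 and mitosis summed to 3306, 3616, 3247 and 847 CPM, a log2 difference of -2.12 between the ends (-2.93 to -1.57 over samples), and the 18 S phase genes to 2611, 2413, 1905 and 890 CPM (-1.59, from -2.07 to -0.47). Mki67 stood at 455, 550, 470 and 86.3 CPM. The cyclin-dependent kinase inhibitor genes were not higher there. Cdkn1a stood at 93.3 CPM in the lowest and 53.4 CPM in the highest class, Cdkn1c at 138 and 76.2 CPM with 2 samples against that direction, and Cdkn1b at 160 and 161 CPM, or at 160 and 133 CPM and lower in all 5 samples without the 1 cell of vehicle 2 described below. Serpina3n showed no steady order, at 811, 1573, 1767 and 1272 CPM.

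**Figure D3:**
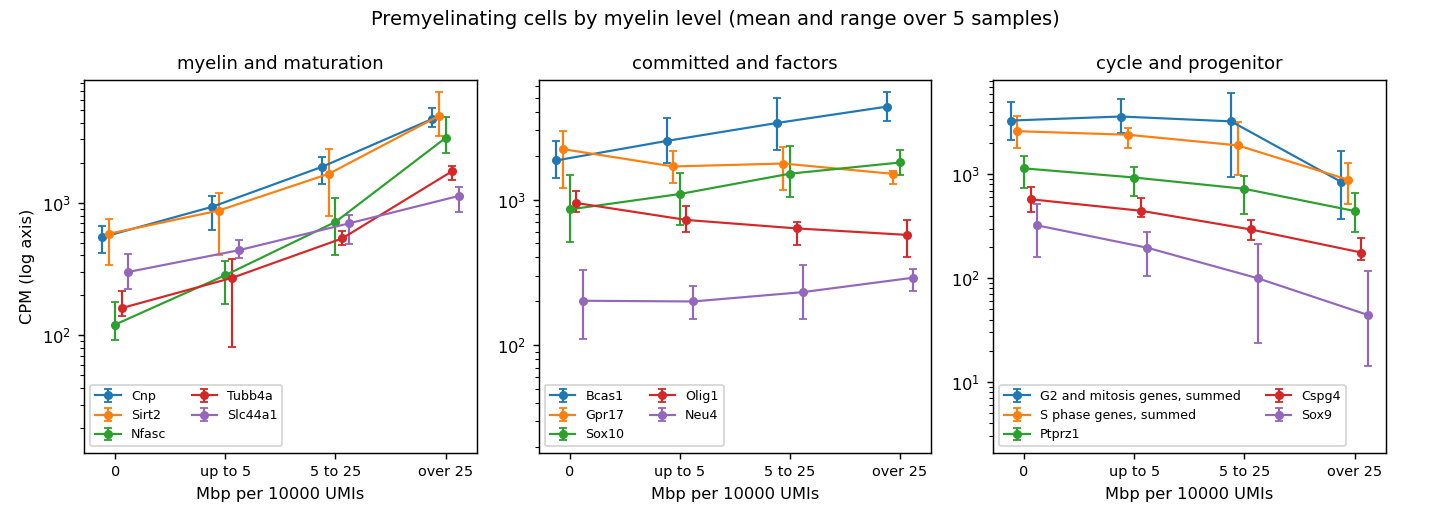
CPM on a log axis against the class of cells by UMIs of Mbp per 10000 UMIs, in 3 panels for myelin, committed and cycle genes. Points are means and bars the range over 5 samples; Cnp goes from 549 to 4291 CPM, Gpr17 from 2220 to 1500 CPM, and the summed genes of G2 and mitosis end at 847 CPM.

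How far normal oligodendrocytes of the host were among the 802 cells was looked at through genes of mature myelin and through chromosome-wide expression. Of the list of late mature oligodendrocyte genes, 14 of 18 had at least 5 CPM in either set of cells, 8 were higher in all 5 samples than in other oligodendroglial cells, 3 of them at least 2-fold, and 1 was lower, Qdpr (-0.13), and the list summed to a mean of 2163 CPM against 1122 CPM. S100b, a calcium-binding protein also made earlier in the lineage, stood at 384 to 842 CPM (log2 ratio 2.11), Ptgds, a prostaglandin synthase, at 465 to 842 CPM (1.42) and Apod, a lipocalin, at 24.4 to 67.0 CPM (3.47). Ppp1r14a, Car2 and Anln had mean log2 ratios of -1.11, -0.66 and -0.42 with ranges that crossed 0. Other genes of mature cells were at or near 0. Aspa and Nkx6-2 had 0 UMIs in the 802 cells together, Grm3 had 1, Ermn 2, Klk6 9 in 1 cell and Gpr37 10. Hapln2, a link protein of nodes, had 54 UMIs, 37 of them in 1 cell, and Mobp, a basic protein of compact myelin, had 276, with at least 10 in 5 cells. Of the late genes Klk6, Apod, Il33, Hapln2, Anln and Aspa, 70 cells held at least 2 UMIs on each of at least 2. Anln is also a gene of cell division, and with it set aside 6 cells did. Barcodes with high levels of Mobp or Mbp also lay outside the rule. Of the barcodes outside the rule that passed the cell filters, 36 had at least 3 UMIs of Mobp or over 40 UMIs of Mbp per 10000, 27 of them under the depth limit, against 56 inside it.

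One cell of vehicle 2 stood apart. Of its 69727 UMIs, 1697 were on Mbp, 335 on Mag, 69 on Mobp, 67 on Mal and 37 on Hapln2, with 16 on Gpr17, 1 on Ptprz1 and 0 on Klk6, Aspa and Ermn. Its Mbp came to 243 per 10000 UMIs, and the next highest cell had 193. Without it Mbp of vehicle 2 went from 1727 to 607 CPM, Mag from 309 to 85.9 CPM, Mobp from 59.5 to 13.5 CPM and Hapln2 to 0.0 CPM, while Opalin and Enpp6 stood at 361 and 364 CPM. The sums of the highest class without it were 866 CPM for G2 and mitosis and 904 CPM for S phase.

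Chromosome-wide expression ran like that of the other oligodendroglial cells. Over 6473 genes of 20 to 500 CPM, the log2 ratio to host immune and endothelial cells was averaged per chromosome, with gene positions on GRCm38. In premyelinating cells chromosome 15 averaged 0.35, chromosome 14 averaged 0.21, chromosome 4 averaged -0.28 and chromosome 16 averaged -0.22, on the same side of 0 in all 5 samples. In other oligodendroglial cells the same chromosomes averaged 0.28, 0.19, -0.33 and -0.25. Across 20 chromosomes the 2 sets correlated at r = 0.972, 0.937, 0.870, 0.976 and 0.896 in the 5 samples. The 2 sets share the host reference of their sample, which in vehicle 2 was 52 immune and 9 endothelial cells. They also share the oligodendroglial lineage, so r does not tell normal oligodendrocytes from tumor cells. Chromosomes 2 and 7 were lower than in the other cells, with 0.07 against 0.17 and 0.04 against 0.15.

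**Figure D4:**
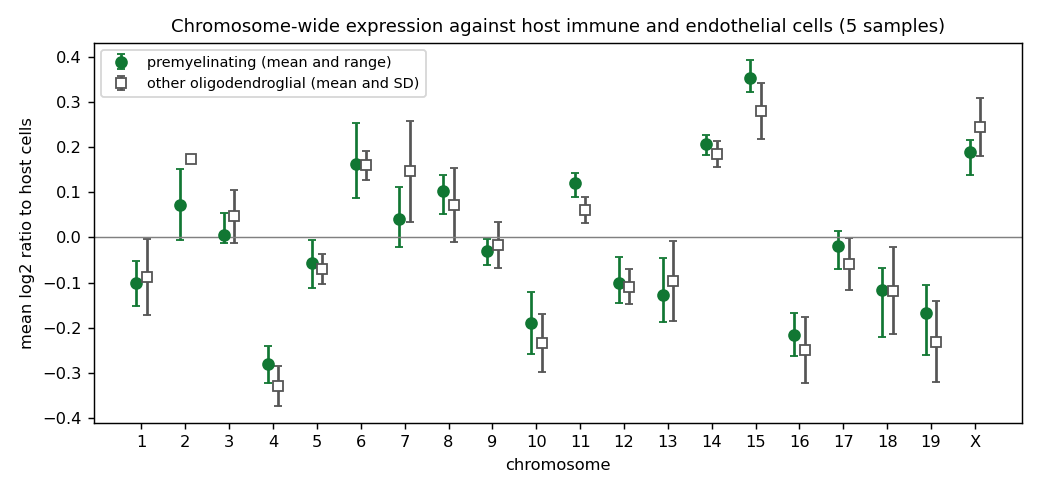
Mean log2 ratio of expression to host immune and endothelial cells on the y axis for each chromosome on the x axis. Green points are premyelinating cells with the range over 5 samples and open squares other oligodendroglial cells with the SD; both are highest on chromosome 15 (0.35 and 0.28) and lowest on chromosome 4 (-0.28 and -0.33).

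For single cells the log2 ratio of UMIs on chromosomes 15, 14, 2 and 6 over UMIs on chromosomes 4, 16, 10 and 19 was scored, which, with chromosome X set aside, are the chromosomes of highest and lowest ratio among those on 1 side of 0 in other oligodendroglial cells of all samples. The score was above the 95th percentile of host cells in 718 of the 802 cells (89.5%), in 93.8% of other oligodendroglial cells, 92.9% of Gpr17 committed cells, 4.12% of immune and 13.9% of endothelial cells. The chromosomes were picked in the other oligodendroglial cells, which include the committed cells, and the limit was set in host cells. The shares of these sets therefore follow from the choice and are no check of the score. The median of UMIs scored was 6229 in the 802 cells and 1431 in immune cells. By sample the shares of premyelinating cells above the percentile were 91.1%, 98.2% and 92.8% in vehicle and 81.2% and 90.1% in Xevinapant. Cells with more than 25 UMIs of Mbp per 10000 reached 90.7% and cells with none 91.9%. The cell of vehicle 2 with the highest myelin level lay 0.717 above the host median, where the host 95th percentile lay at 0.313. The 84 cells not above the percentile had 2434 CPM of Gpr17, 739 CPM of Mbp and 308 CPM of Mki67, against 1865, 750 and 452 CPM in the 718. No normal oligodendrocytes of the host were at hand as a reference, so the score also holds differences between cell types. The Y-linked genes Ddx3y, Uty, Kdm5d and Eif2s3y had 0 UMIs in all barcodes, so they did not tell host from tumor. The share of normal oligodendrocytes among them was not settled by these measures.

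Markers of other cell types were present to different degrees. The 9 microglia and macrophage genes in the files summed to 81.2 to 124 CPM per sample, against 98.7 to 139 CPM in other oligodendroglial cells. The 5 endothelial genes summed to 23.3 to 44.3 CPM, against 23.1 to 36.8 CPM in those cells, most of it Vwf. Vwf was higher than in those cells in all 5 samples (log2 ratio 1.66), and Pecam1, Cldn5, Flt1 and Cdh5 were lower in all 5. The 10 neuron genes summed to 50.9 to 81.8 CPM, with 2 of them at 0, and the 6 T and NK cell genes to 1.5 to 6.3 CPM. The astrocyte list summed to 635, 457 and 1447 CPM in vehicle and 452 and 994 CPM in Xevinapant, against 1089 to 1826 CPM in other oligodendroglial cells, with Gfap at 638 CPM in vehicle 4 and 393 CPM in Xevinapant 3+4 and its part in the results not tested. The 7 fibroblast and mural genes summed to 14.2 to 272 CPM in vehicle and 1453 and 70.7 CPM in Xevinapant, and in Xevinapant 1+2 the excess came with 2 cells of 1460 and 3151 UMIs of Col1a1. Erythrocyte genes summed to 353 CPM in vehicle 2 and 12.6 to 54.7 CPM elsewhere. In the list of Schwann cell genes, which also make myelin proteins, the sum was 198 to 220 CPM, most of it Pmp22.

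Whether some barcodes hold RNA of more than 1 cell was not settled. In 252 of the 802 cells (31.4%) and 27.4% of all barcodes, the droplet part of the barcode also occurred in another matrix of the same pool, and 4 of the 802 shared it with another of them. Each matrix had 1 probe barcode, which tells the matrices of a pool apart, so a shared droplet part does not by itself show mixed RNA. A full barcode that occurred in both pools was held by 20 of the 802, none of which was a premyelinating cell in both. No doublet caller was run on them here. The labels say that the authors removed doublets, but the deposited matrices also hold barcodes that fail their other filters.

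Xevinapant and vehicle were compared in counts summed per sample over the premyelinating cells, to ask which genes differed in this state. The sums held 1478118 to 6249618 UMIs per sample. They took all classes of Mbp level together, and the class of highest Mbp was a smaller share of the Xevinapant samples. Its part in the differences below was not tested. Of 11781 genes tested, 1 passed an adjusted p of 0.05 in edgeR's quasi-likelihood test with Benjamini-Hochberg adjustment (0.00849%), and it was Fos, an immediate early transcription factor gene. Fos stood at 159, 129 and 144 CPM in vehicle and at 349 and 369 CPM in Xevinapant, so that the groups did not overlap. It rose by 1.33 on the log2 scale (SE 0.12, adjusted p = 0.021). With each of the 8 matrices counted as 1 tumor 370 genes passed, 191 higher and 179 lower in Xevinapant. On the 5 samples 196 of 4507 genes passed in DESeq2, and 180 of 15463 in edgeR without the filter on low counts. Unadjusted, 1755 genes had p under 0.05 (14.9%), 854 of them higher in Xevinapant (7.25%) and 901 lower (7.65%), and the groups did not overlap in 15.2% of genes with Xevinapant higher and 17.4% with Xevinapant lower (32.6% in either direction). The call for Fos was lost without vehicle 2 (adjusted p = 0.14), without vehicle 4 (0.0974) or without Xevinapant 1+2 (0.0645) and with all 3 markers required (0.202), with a log2 difference of 1.12 to 1.41 over 14 alternatives.

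Immediate early and stress genes lay to one side as a list. Of the 14 tested, 10 had an unadjusted p under 0.05 with Xevinapant higher and 10 did not overlap, against 7.25% and 15.2% of all genes. Their median log2 difference was 0.76 where the median of all genes was -0.00. Apart from Fos the list passed no test. Jun and Nr4a1 were named after their values were seen. Jun stood at 266, 249 and 288 CPM in vehicle and 351 and 315 CPM in Xevinapant (log2 difference 0.33, SE 0.13, adjusted p = 0.286), and Nr4a1, an orphan receptor gene of the same class, at 243, 198 and 226 CPM and 298 and 258 CPM (0.34, SE 0.14, adjusted p = 0.31). In the Gpr17 committed cells of the same samples the list summed to 964, 842 and 833 CPM in vehicle and 1815 and 1541 CPM in Xevinapant, higher in Xevinapant there as well, and the difference between the cell types is given with the interaction below.

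Genes of G2 and mitosis lay to the other side, none of them past the test. Of the 18 tested, 16 had an unadjusted p under 0.05 with Xevinapant lower and 15 did not overlap, against 7.65% and 17.4% of all genes. Their median log2 difference was -0.57. Top2a, a topoisomerase of dividing cells, stood at 640, 570 and 778 CPM in vehicle and 437 and 530 CPM in Xevinapant (log2 difference -0.44, SE 0.16, adjusted p = 0.279), and Mki67 differed by -0.54 (SE 0.16, adjusted p = 0.235). The list summed to 3308, 3288 and 4376 CPM in vehicle and 2041 and 2613 CPM in Xevinapant. In Gpr17 committed cells the sums were 4818, 4979 and 5597 CPM and 3603 and 4066 CPM. Of the 18 S phase genes 5 had an unadjusted p under 0.05, all with Xevinapant lower, against 7.65% of all genes. The median was -0.28. Pcna, the polymerase clamp, differed by -0.46 (SE 0.18, adjusted p = 0.303) and Mcm2, of the replicative helicase, by -0.29 (SE 0.15, adjusted p = 0.404).

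No gene of the oligodendrocyte lists passed the test. Of the 12 committed OPC genes 4 had an unadjusted p under 0.05 with Xevinapant higher, against 7.25% of all genes. Bcas1 stood at 2474, 2136 and 1991 CPM in vehicle and 3579 and 2762 CPM in Xevinapant (log2 difference 0.55, SE 0.18, adjusted p = 0.244), Gpr17 differed by 0.49 (SE 0.17, adjusted p = 0.27) and Cd9, a tetraspanin, by 0.29 (SE 0.16, adjusted p = 0.429). Sox10 differed by 0.68 (SE 0.20, adjusted p = 0.225) and Olig1 by -0.28 (SE 0.13, adjusted p = 0.362), while Nkx2-2, named after its values were seen, differed by 1.02 (SE 0.26, adjusted p = 0.211). In the OPC list Gpr37l1 differed by 0.32 (SE 0.16, adjusted p = 0.379) and Ptprz1 by -0.57 (SE 0.17, adjusted p = 0.233). Of 25 myelin genes tested, 5 had an unadjusted p under 0.05 with Xevinapant higher and 1 with Xevinapant lower, against 7.25% and 7.65% of all genes. The median was 0.06. Cnp differed by 0.06 (SE 0.14), Sirt2 by 0.39 (SE 0.18) and Mbp by -0.68 (SE 0.36), with the cell of vehicle 2 included. Without the 6 cells with late genes other than Anln, that cell among them, Mbp differed by -0.07. Opalin, Enpp6, Myrf and Plxnb3 are given above by sample without a test. Serpina3n differed by 0.56 (SE 0.15, adjusted p = 0.212) and C4b by 0.80 (SE 0.17, adjusted p = 0.209), both without overlap between the groups.

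The targets of Xevinapant at the level of RNA gave no call. Xiap, which blocks caspases, stood at 18.4, 20.3 and 23.1 CPM in vehicle and 9.1 and 13.2 CPM in Xevinapant, so that the groups did not overlap (log2 difference -0.87, SE 0.24, adjusted p = 0.219). Birc2, which encodes cIAP1, stood at 27.5, 31.1 and 30.9 CPM in vehicle and 27.7 and 32.2 CPM in Xevinapant (0.04, SE 0.16), and Birc3, which encodes cIAP2, differed by 0.09 (SE 0.33). These 3 were chosen as the known targets of the drug. Of 24 cell death genes tested, 1 had an unadjusted p under 0.05, Xiap, with Xevinapant lower, against 7.65% of all genes. The members of highest level, the adaptor gene Fadd and the effector gene Bax, differed by 0.22 (SE 0.16) and 0.03 (SE 0.12). In the hypoxia list 5 of 18 had an unadjusted p under 0.05 with Xevinapant higher and 1 with Xevinapant lower, against 7.25% and 7.65% of all genes. The groups did not overlap in 7 of the 18 with Xevinapant higher and in 2 with Xevinapant lower, against 15.2% and 17.4% of all genes. Ldha, of lactate production, differed by 0.25 (SE 0.13) and Aldoa, of glycolysis, by -0.09 (SE 0.15). Vegfa and Slc2a1 were named after their values were seen. Vegfa stood at 404, 434 and 288 CPM in vehicle and 600 and 581 CPM in Xevinapant. Slc2a1 stood at 243, 200 and 166 CPM and 375 and 266 CPM. No gene of the list passed the test. In the interferon list 1 of 22 had an unadjusted p under 0.05, Irf1 (0.54, SE 0.16, adjusted p = 0.232), in the list of p53 targets 1 of 11, Cdkn1a (0.50, SE 0.19, adjusted p = 0.279), and in the NF-kB list 1 of 11, Tnfaip3 (0.68, SE 0.22, adjusted p = 0.241), all with Xevinapant higher and named after their values were seen. Over all genes that share was 7.25%, so these counts are no result about the lists. The interferon genes summed to 641 CPM in vehicle 2 and to 1227 to 2042 CPM in the other samples.

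**Figure D5:**
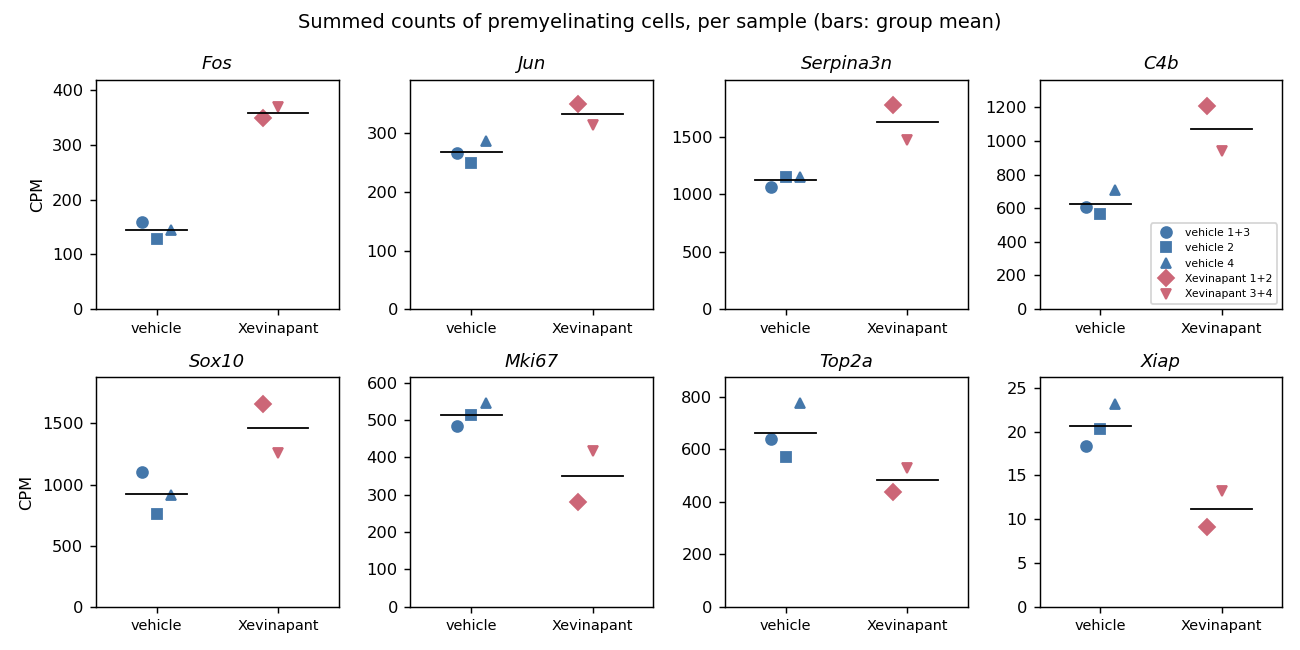
CPM of 8 genes on the y axis in the summed counts of premyelinating cells, with 1 point per sample, vehicle in blue (n = 3) and Xevinapant in red (n = 2), and a bar at the group mean. Fos lies at 129 to 159 CPM in vehicle and 349 to 369 CPM in Xevinapant and is the gene that passed the test. The other 7 genes did not pass it. Their groups do not overlap, which held for 32.6% of all genes tested. Named genes whose groups overlap, such as Birc2 and Cnp, are not shown.

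Whether the treatments differed more or less here than in Gpr17 committed cells was tested as an interaction. No gene of 13858 passed (0.0%, edgeR with Benjamini-Hochberg adjustment), and 449 had an unadjusted p under 0.05. In the committed cells alone 0 of 13978 genes passed in edgeR, with 1778 at an unadjusted p under 0.05. Fos differed by 2.13 on the log2 scale in committed cells (adjusted p = 0.359), and the interaction for it was -0.83 (adjusted p = 1), which does not show that the response was the same.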

How the data were processed

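The authors deposited 8 matrices of UMI counts for 19059 genes, whole numbers without normalization. Per the labels, reads were mapped to mm10 with Cell Ranger, for which the labels and the file headers name different versions, and Seurat was used downstream. Barcodes had 16 droplet and 8 probe bases, as in probe-based profiling of fixed RNA, and CPM is not compared between genes. Cell filters followed the labels, apart from their removal of doublets and of rare genes. UMI counts of the chosen cells were summed per sample (at least 10 cells each) and tested with edgeR 4.0.16 (TMM, filterByExpr, glmQLFit, glmQLFTest) under R 4.3.3, with Benjamini-Hochberg adjustment at 0.05. Shares were tested by exact two-sided permutation over samples. Log2 ratios used a pseudocount of 1 CPM, and chromosome ratios one of 10 CPM. Simulated on the counts of the premyelinating cells, with 11668 genes, the edgeR step called 67 of 99 genes changed 2-fold, 90 of 98 changed 4-fold and 11 of 11471 unchanged genes. Each simulated gene was drawn on its own around a common mean profile, so shifts shared by many genes of a sample were absent. These shares are therefore not the power of the real comparison. Python 3.11.15, numpy 2.4.6, pandas 2.3.3, scipy 1.17.1, matplotlib 3.10.9, limma 3.58.1 and DESeq2 1.42.0 were used as well. Alternatives were DESeq2, library size without TMM, no filter on low counts, each matrix as 1 mouse, stricter rules and each sample left out. Named genes were, per list, those past the test or, where none passed, 2 to 4 of highest level, with exceptions stated beside their values. Against other cells they came from the 10 highest ratios, to which the 10 lowest and members of the lists were added after their values were seen. The members, the gene lists and the named genes were chosen with earlier results of these data known. Wilson intervals are at 95%, and a count of 0 allows up to 3 counts. The classes by Mbp level were set after seeing the data. Some withheld items are not reported here.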

Additional observations from a re-analysis of the deposited data

How the results depend on the processing

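No paired analysis was possible because the groups share 1 replicate number alone and neither the matrices nor the pools tie a vehicle sample to a Xevinapant sample. The share of premyelinating cells differed by 0.477 percentage points, and leaving out each sample gave -0.343 to 1.30. The direction turned without vehicle 2 (-0.027) and without Xevinapant 1+2 (-0.343). Over the other settings the difference was 0.15 to 0.85 points (exact permutation p of 0.5 to 0.857, where 3 against 2 samples, the layout of each setting but the one with each matrix as 1 mouse, cannot go below 0.1). In the sums, 1 gene passed in edgeR, 196 in DESeq2 (94 higher, 102 lower), 180 without the filter on low counts (91 higher, 89 lower) and 370 with each matrix as 1 mouse (191 higher, 179 lower), which counts alike matrices as separate. Without the 70 cells with late genes 3 passed, without the 6 found when Anln was not counted 2, and without the 5% of cells with the most UMIs 2. Leaving out each sample gave 0 to 67 calls, with 4 without vehicle 1+3, 0 without vehicle 2 (1568 at an unadjusted p under 0.05), 0 without vehicle 4 (1218) and 67 without Xevinapant 3+4 (55 higher, 12 lower), where the lone Xevinapant sample is assumed to vary like the vehicle samples. The interaction with committed cells gave 0 calls, 6 without the filter on low counts, and 0 to 7 over samples left out, with 7 without vehicle 1+3 and 3 without Xevinapant 3+4. Of 27 genes followed through the alternatives, 21 never turned direction and 9 were called in at least 1. The turns were Cnp at -0.066 and Birc2 at -0.053 with all 3 markers required, Birc2 at -0.022 without cells with late genes and Bax at -0.003 without barcodes found in both pools. Leaving out each sample gave -0.008 to 0.121 for Cnp, -0.198 to 0.018 for Aldoa, -0.019 to 0.434 for Fadd, -0.036 to 0.088 for Bax, -0.041 to 0.114 for Birc2 and -0.069 to 0.352 for Birc3. The cause was not tested. Dropping barcodes found in both pools, and not counting Anln, were chosen after seeing the data.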
